A study of Sus scrofa with 45 samples.

Results

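Solute carriers are membrane proteins that move sugars, amino acids, ions, nucleotide sugars, vitamins and metals across the plasma membrane and the membranes of organelles. The members described here were the probes, control spots left out, whose gene name started with SLC and a digit or whose description held the words solute carrier in any case. They numbered 85 of the 43603 probes of the porcine array and stood for 70 gene symbols. Of these 85 probes, 45 carried the symbol as gene name, 4 were named by the description of a pig reference transcript and 36 by a stated similarity to a named carrier. SLC7A6OS met the rule by its description, but it is a gene on the strand opposite a carrier gene and not a carrier itself.

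The samples came from male Clawn miniature pigs, 12 weeks old when feeding began, that were fed a standard feed (control group), a feed high in fat and cholesterol (HFCD group) or that feed with high sucrose as well (HFCSD group). Whole blood, stabilized in PAXgene tubes, was sampled at weeks 10, 19 and 27 of feeding, and white blood cells, isolated with a LeukoLOCK kit, at week 27. Each sample was labelled with cyanine 3 and hybridized to 1 array, 45 arrays in all. Strain and sex were the same in all 12 groups, and no group carried a genetic change. Whole blood gave 4 control, 4 HFCD and 4 HFCSD arrays at 10 weeks. At 19 weeks it gave 4, 4 and 3, and at 27 weeks 4, 3 and 3, in the same order, and white blood cells gave 4 arrays for each diet. The arrays lay on 16 slides scanned on 5 days. The 10-week and 27-week whole blood arrays and the white blood cell arrays were each scanned on a day of their own. Week and scan day therefore cannot be told apart, nor can sample type, isolation kit and scan day.

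Cells use glucose carriers for facilitated or sodium-coupled uptake of sugars, and amino acid carriers for uptake, exchange and export of amino acids, some of them as light chains bound to a heavy chain. Red cells of adult pigs are known for very low glucose uptake, whereas lymphocytes and phagocytes raise glucose and glutamine uptake when activated. Other families serve organelles: mitochondrial carriers exchange nucleotides and cofactors, and nucleotide sugar carriers supply the Golgi apparatus and the endoplasmic reticulum.

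Signal over background set how many carriers could be measured. The mean (SD) share of spots that were well above background was 40.9% (3.79), 47.8% (4.51) and 43.7% (5.4) in whole blood of the control, HFCD and HFCSD groups at 10 weeks and 44.6% (4.37), 40.2% (2.46) and 42.8% (5.22) at 19 weeks. At 27 weeks it was 46.2% (5.14), 46.2% (2.67) and 39.4% (0.473) in whole blood and 47.6% (2.86), 45.1% (1.66) and 47.6% (1.06) in white blood cells. The number of carrier probes present on an array, that is, well above background, ranged from 28 to 55 of 85.

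Over the 12 groups, 41 of the 85 carrier probes (48.2%), for 38 genes, filled at least 1 group, that is, were present on all of its arrays, beside 48.6% of all probes. On all 45 arrays, 19 carrier probes (22.4%), for 18 genes, were present, beside 27.9% of all probes. Another 14 carrier probes (16.5%) were present on no array, beside 31.2% of all probes. The remaining 30 (35.3%) were present on some arrays without filling a whole group, beside 20.2% of all probes. With the weaker flag, which asks only for a signal significantly above background, 64 carrier probes (75.3%) filled at least 1 group, beside 67.1% of all probes. By that flag 20 (23.5%) lay on some arrays without filling a group, beside 31.6%, and 1 (1.18%) on no array, beside 1.3%.

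In whole blood at 10 weeks, 26 carrier probes (30.6%) were present on every control array, beside 34.4% of all probes, 35 (41.2%) on every HFCD array, beside 40.5%, and 26 (30.6%) on every HFCSD array, beside 35.7%. At 19 weeks these numbers were 27 (31.8%, beside 37.5%), 23 (27.1%, beside 33.1%) and 25 (29.4%, beside 36.6%). At 27 weeks they were 28 (32.9%, beside 37.6%), 33 (38.8%, beside 40.8%) and 26 (30.6%, beside 35%). White blood cells of control, HFCD and HFCSD pigs had 32 (37.6%, beside 40.2%), 34 (40%, beside 39%) and 34 (40%, beside 42.6%). The carriers' share lay below that of all probes in 10 of the 12 groups and moved with it. Groups of 3 arrays fill more easily than groups of 4.

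**Figure D1:**
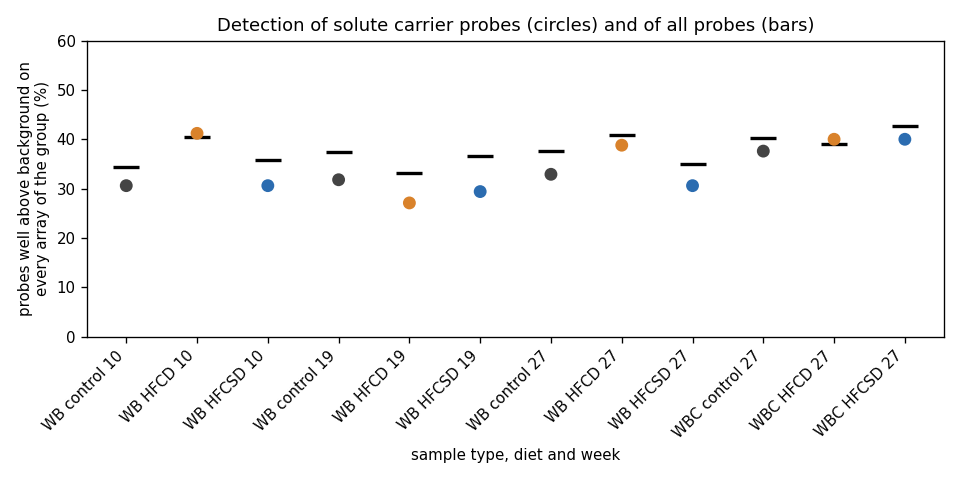
Share of probes present on every array of a group (y axis, percent) in the 12 groups (x axis), with circles for the 85 solute carrier probes and black bars for all 43603 probes. The circles range from 27.1% to 41.2% and follow the bars, which range from 33.1% to 42.6%.

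Of the 11 glucose list probes, 7 were present in at least 1 group and 4 on all 45 arrays, and 5 or 6 were present in each group. SLC2A8, an intracellular hexose carrier, SLC2A5, the fructose carrier, SLC2A10, a carrier of glucose and dehydroascorbic acid, and SLC37A3, a member of the sugar phosphate exchanger family, were the 4 present on all arrays. SLC2A8 had group means between 8.16 and 8.87 (log2 intensity), the narrowest range of these 4. SLC2A5 had group means between 7.83 and 8.48 in whole blood and between 7.28 and 7.41 in white blood cells. These values are of A_72_P343093, named by a stated similarity to a rabbit carrier. The probe with SLC2A5 as gene name, A_72_P437484, was present on 2 arrays, so that the levels may not stand for this gene. SLC37A3 had group means between 6.82 and 7.56 in whole blood and between 8.01 and 8.29 in white blood cells. SLC2A1, the widespread basal glucose carrier, was close to background, with group means between 4.59 and 5.32, present on 42 arrays and on every array of 9 groups.

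SLC2A10 (probe A_72_P170186) had the following levels in whole blood. At 10 weeks it was 8.38, 9.29, 8.66 and 8.20 in control pigs, 7.61, 9.35, 8.48 and 7.31 in HFCD pigs and 8.48, 8.95, 8.34 and 7.99 in HFCSD pigs. At 19 weeks it was 8.96, 9.02, 8.90 and 8.83 in control pigs, 6.52, 9.44, 9.32 and 9.26 in HFCD pigs and 8.31, 7.86 and 8.17 in HFCSD pigs. The diets overlapped at 10 weeks, whereas at 19 weeks all 3 HFCSD arrays lay below all 4 control arrays and HFCD replicate 1 lay far below the other HFCD arrays. In white blood cells it was 6.80, 6.57, 6.09 and 7.66 for control, 6.85, 5.24, 7.52 and 7.04 for HFCD and 6.12, 7.05, 6.73 and 6.15 for HFCSD, and the diets overlapped.

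SLC2A11 (A_72_P173666), a hexose carrier of the fructose-like branch, was present on all whole blood arrays and on 3 white blood cell arrays, all of the HFCSD group. Its whole blood means (SD) were 8.98 (0.70), 7.89 (1.57) and 9.09 (0.82) for control, HFCD and HFCSD at 10 weeks and 8.66 (1.40), 9.27 (2.02) and 8.45 (0.92) at 19 weeks. The spread among pigs of a group was wide, from 5.98 to 11.40 over all whole blood arrays. SLC37A1, an exchanger of glucose 6-phosphate and phosphate, was present on 11 arrays and filled 1 group, HFCD white blood cells, with a mean of 4.22 (0.41). SLC2A7, a hexose carrier of the gut, was present on 18 arrays without filling a group, and the other SLC2A5 probe on 2 arrays. SLC2A2, the low-affinity glucose carrier of liver and pancreatic islets, and SLC5A1, the sodium-glucose cotransporter of the gut, were present on no array.

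**Figure D2:**
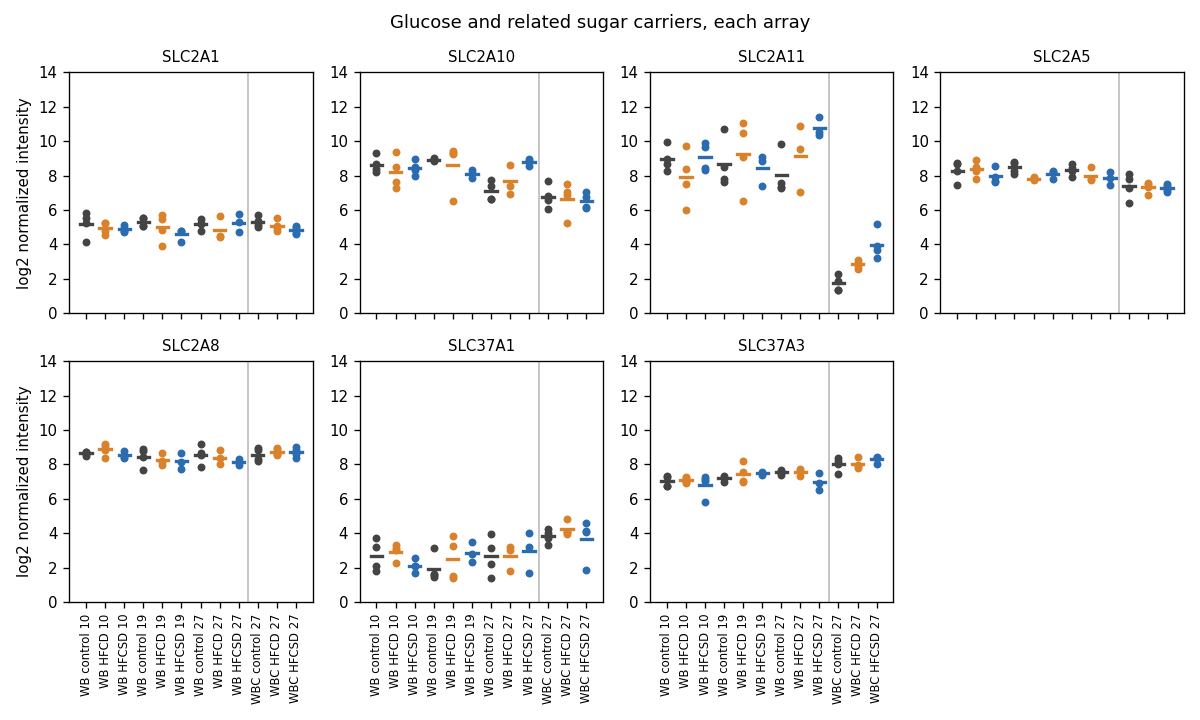
Levels of the 7 glucose list probes present in at least 1 group, 1 panel per probe, as log2 intensity (y axis) by group (x axis). Points are arrays and lines are group means, with control in grey, HFCD in orange and HFCSD in blue, and a vertical line separates whole blood from white blood cells, where SLC2A11 lies between 1.38 and 5.21.

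Of the 16 amino acid list probes, 8 were present in at least 1 group, 3 on all 45 arrays and 4 to 8 in each group. The 3 on all arrays were SLC1A5 (A_72_P128251), a sodium-dependent exchanger of glutamine and other neutral amino acids, SLC7A1, a carrier of arginine and lysine, and SLC7A7, a light chain that exports basic amino acids. Their group means were 10.70 to 11.47 for SLC1A5, 9.43 to 10.22 for SLC7A1 and 10.39 to 11.70 for SLC7A7. SLC16A10, a carrier of aromatic amino acids, was present on 43 arrays, with group means between 5.45 and 6.58. SLC7A9, the light chain of the renal cystine carrier, was present on 44 arrays, with group means of 7.26 to 9.25 in whole blood and 4.24 to 4.69 in white blood cells. SLC3A1, the heavy chain that it binds in kidney, was present on 10 arrays and filled no group.

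The other SLC1A5 probe (A_72_P309933) filled 5 groups. Its whole blood means (SD) for control, HFCD and HFCSD were 5.82 (0.70), 5.76 (0.27) and 5.90 (0.49) at 10 weeks, measured on all of these arrays but 1 of the control group. They were 4.45 (0.78), 4.31 (1.14) and 4.36 (0.79) at 19 weeks, where 3 of 4, 2 of 4 and 2 of 3 arrays measured it. For week 27 they were 3.34 (0.83), 3.98 (0.53) and 4.52 (1.00), with 1 of 4, 2 of 3 and 1 of 3 arrays; the weeks were not compared by a test and cannot be told apart from scan day. SLC7A3, a carrier of cationic amino acids, filled 2 groups and was present on 25 arrays, and SLC6A14, a carrier of neutral and cationic amino acids, filled 1 group and was present on 24. SLC7A11, the cystine and glutamate exchanger, SLC38A2, a sodium-coupled carrier of neutral amino acids, SLC7A2, a carrier of cationic amino acids, and SLC7A13 were each present on at most 4 arrays and filled no group. The other probes of SLC7A1 and SLC7A7 were present on 1 and 7 arrays, and the other probe of SLC7A9 on none. That SLC7A9 probe, A_72_P088796, is the one of the pig reference transcript. A_72_P093496, whose levels are given, was named by a stated similarity to a bovine carrier, so that they may not stand for this gene.

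**Figure D3:**
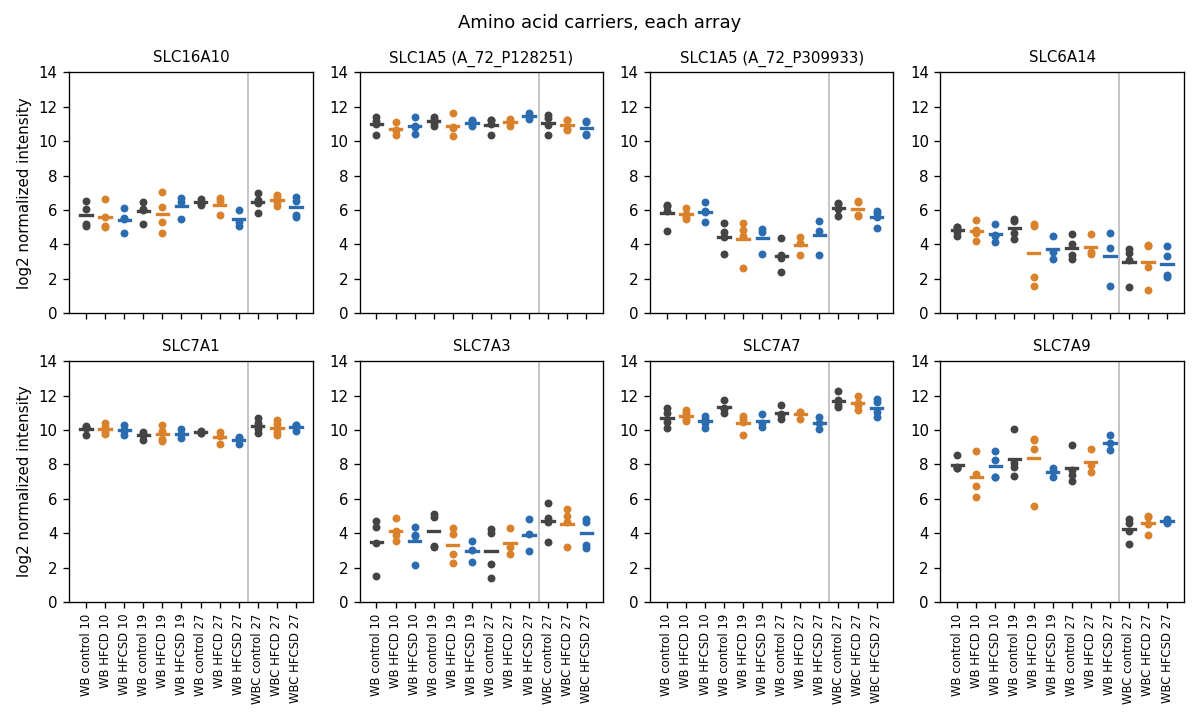
Levels of the 8 amino acid list probes present in at least 1 group, 1 panel per probe, as log2 intensity (y axis) by group (x axis). Points are arrays and lines are group means, with control in grey, HFCD in orange and HFCSD in blue, and a vertical line separates whole blood from white blood cells, where SLC7A9 lies between 3.37 and 4.97.

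Among the other families, 4 of 7 mitochondrial probes were present on all arrays. SLC25A6, an exchanger of ADP and ATP, had group means between 15.02 and 15.53 on its probe A_72_P165521. All 3 zinc carrier probes filled at least 1 group, as did 6 of 13 for ion exchange and cotransport, 3 of 5 for nucleotide sugars, 2 of 3 for fatty acids and 2 of 3 for phosphate. Neither peptide carrier probe and not the vitamin carrier probe filled a group. SLC44A2, a choline carrier and neutrophil surface antigen, had group means between 12.41 and 13.42, whereas the 4 probes of SLC44A4, a related carrier of epithelia, filled no group. Of the solute carrier genes listed for a textbook role in blood cells, SLC16A1, the lactate carrier, was present on 17 arrays without filling a group.

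Of the genes, 13 had more than 1 probe, 28 probes in all. In 6 of them, SLC25A16, SLC2A5, SLC31A2, SLC7A1, SLC7A7 and SLC7A9, exactly 1 probe filled a group and another filled none. In SLC1A5, SLC25A6 and SLC26A6 every probe filled at least 1 group, and in SLC16A4, SLC44A4, SLC5A11 and SLC9A2 none did. The probes of SLC25A6 also differed over the weeks. In whole blood of control pigs A_72_P019756 had means (SD) of 11.34 (0.20), 9.79 (0.67) and 8.44 (1.07) at 10, 19 and 27 weeks, whereas A_72_P165521 had 15.44 (0.16), 15.44 (0.31) and 15.35 (0.22). The means of A_72_P019756 lay closer together over the weeks in the fat diets, with 11.21 (0.13), 9.83 (1.41) and 9.11 (0.83) in HFCD pigs and 11.23 (0.07), 10.02 (1.16) and 9.90 (0.24) in HFCSD pigs, and A_72_P165521 had 15.53 (0.13), 15.45 (0.03) and 15.53 (0.06) and 15.46 (0.04), 15.50 (0.07) and 15.40 (0.15). Differences between weeks were not tested, and week and scan day cannot be told apart.

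The probes are 60 bases long and fixed by the array design. The motif AATAAA, the polyadenylation signal that lies near the end of a transcript, was found in 16 of the 85 carrier probes (18.8%) and in 12.1% of all probes, on the strand printed. The carrier probes had a median base content of 43.3% G and C, beside 40% for all probes. The 2 SLC25A6 probes are shown because their levels over the weeks differed, with SLC2A10 and SLC2A11, whose levels are given above, and SLC2A8, present on all arrays; capitals mark AATAAA.
SLC25A6 A_72_P165521: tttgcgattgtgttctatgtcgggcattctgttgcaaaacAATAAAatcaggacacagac
SLC25A6 A_72_P019756: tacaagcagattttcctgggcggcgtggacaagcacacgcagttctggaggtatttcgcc
SLC2A10 A_72_P170186: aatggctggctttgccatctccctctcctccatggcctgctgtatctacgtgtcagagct
SLC2A11 A_72_P173666: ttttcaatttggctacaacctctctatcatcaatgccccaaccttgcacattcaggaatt
SLC2A8 A_72_P203887: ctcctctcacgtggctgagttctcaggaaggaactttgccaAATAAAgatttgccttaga
The SLC25A6 probe with the motif had group means within 15.02 to 15.53 and the other had group means from 8.44 to 11.34. Neither the SLC2A10 nor the SLC2A11 probe holds the motif.

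The diet comparisons ask how carrier RNA in blood differed with the feed at each week. Of the 12 diet comparisons, HFCSD against control in whole blood at 27 weeks was the only one in which a carrier passed the adjusted threshold of 0.05 (limma). The comparisons of a week share their groups, so that they are not independent of each other, and counts and medians of the carriers stand beside those over all probes tested. Of the glucose list, SLC2A10 passed in that 1 comparison, where 6 glucose probes were tested, and no other call was made; of the amino acid list, no probe passed between diets.

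In whole blood at 10 weeks no carrier passed between diets. SLC7A6OS had a mean of 4.24 (0.21) in the HFCD group and 3.35 (0.46) in the control group, where it was present on no array. SLC16A9, a carrier of the monocarboxylate family, had 4.36 (0.49) in the HFCD group and 5.07 (0.35) in the control group, a log2 difference of -0.70. For HFCD against control, 0 of 35 carrier probes tested passed in limma, beside 0.0281% of all probes, and 2 had an unadjusted p under 0.05, beside 10.0% of all probes. For HFCSD against control, 0 of 29 passed, beside 0.0123%, and 0 had an unadjusted p under 0.05, beside 1.73%. For HFCSD against HFCD, 0 of 36 passed, beside 0%, and 2 had an unadjusted p under 0.05, beside 4.95%: SLC12A4, a potassium-chloride cotransporter, and SLC34A1, the sodium-phosphate cotransporter of kidney. The methods' t-test gave 0 after adjustment in all of these. Median log2 differences were 0.07, -0.10 and -0.07 for the carriers and 0.09, -0.01 and -0.10 for all probes.

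In whole blood at 19 weeks no carrier passed the adjusted threshold. SLC7A7 was 10.98, 11.21, 11.29 and 11.74 in control pigs, 10.63, 10.45, 10.83 and 9.71 in HFCD pigs and 10.43, 10.90 and 10.15 in HFCSD pigs. Every array of either fat diet lay below every control array, with log2 differences of -0.90 (SE 0.29, adjusted p = 0.258) and -0.81 (SE 0.32, adjusted p = 0.364). Of the control arrays only replicate 1 (10.98), the lowest, was scanned on the day of the fat diets. Diet and scan day can therefore hardly be told apart for SLC7A7 or any other carrier set against control here. SLC2A5 had means of 8.48 (0.34), 7.83 (0.08) and 8.09 (0.27), and SLC44A2 was higher in HFCD pigs, 13.35 (0.26), than in control pigs, 12.57 (0.51), with overlap and a difference of 0.78 (SE 0.28, adjusted p = 0.292). For SLC31A2, a copper carrier of intracellular membranes, diet and scan day cannot be told apart: control replicate 1, scanned on the day of the fat diets, was 6.24, below all of their arrays (6.26 to 6.54), and only the 3 controls of the other day lay above (7.36, 7.34 and 7.93).

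For HFCD against control at 19 weeks, 0 of 27 carrier probes passed in limma, beside 0.0181% of all probes, and 4 had an unadjusted p under 0.05 (SLC7A7, SLC2A5 and SLC31A2 lower, SLC44A2 higher), beside 12.5%. For HFCSD against control, 0 of 29 passed, beside 0.0175%, and 3 had an unadjusted p under 0.05 (SLC7A7, SLC31A2 and SLC5A5, all lower), beside 11.9%. SLC5A5, the sodium-iodide cotransporter, was present on no HFCSD array there. For HFCSD against HFCD, 0 of 26 passed, beside 0%, and 0 had an unadjusted p under 0.05, beside 1.55%. The methods' t-test gave 0 after adjustment in all of these. Median log2 differences were -0.26, -0.28 and 0.03 for the carriers and -0.03, 0.04 and 0.09 for all probes. Control replicates 2 to 4 were scanned on a different day from control replicate 1 and the 7 arrays of the fat diets. With scan day as a block, 0 carriers passed in these comparisons as well.

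No marker gene of blood cells passed between these groups either. Of the 9 T cell genes listed, 7 had a probe, and neither CD4 probe was tested here. The 11 T cell marker probes tested had medians of 0.66 for HFCD and 0.75 for HFCSD against control. The medians of all probes were -0.03 and 0.04, and CD3D was the brightest T cell marker. The summed T cell level was 12.67, 12.90, 12.74 and 12.96 in control pigs, 13.86, 12.69, 12.85 and 13.08 in HFCD pigs and 13.02, 13.37 and 13.23 in HFCSD pigs, so that HFCD overlapped with control and HFCSD lay above it. The 6 monocyte marker probes tested, for 3 of the 5 genes listed, had medians of -0.48 and -0.19. For control, HFCD and HFCSD, CD14 (A_72_P050971) had means of 10.29 (0.33), 8.97 (1.34) and 8.66 (1.43), and LYZ, the brightest, had 12.69 (0.87), 12.65 (0.95) and 13.64 (0.42). The summed monocyte level was 14.14, 13.21, 12.96 and 12.61 in control pigs, 13.81, 13.31, 13.06 and 11.82 in HFCD pigs and 13.47, 14.24 and 13.76 in HFCSD pigs, with overlap. Their part in the result was not tested.

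In whole blood at 27 weeks SLC2A10 was higher in the HFCSD group than in the control group and was the 1 carrier that passed. It was 8.98, 8.87 and 8.54 in HFCSD pigs, 6.96, 8.61 and 7.41 in HFCD pigs and 7.38, 6.67, 6.65 and 7.75 in control pigs. All 3 HFCSD arrays lay above all 4 control arrays, and 1 of the 3 HFCD arrays reached the HFCSD levels. The means were 8.79 (0.23) and 7.11 (0.54), a 3.21-fold difference (log2 1.68, SE 0.40, limma's adjusted p = 0.031). The HFCD mean, 7.66 (0.85), did not differ from either past the threshold. The HFCSD mean at 27 weeks lay within the range of the group means at the earlier weeks, and the control mean lay below all of them, without a test. No marker gene of blood cells passed for HFCSD against control at 27 weeks. T cell and monocyte marker probes had medians of 0.03 and 0.04, beside -0.21 for all probes. HFCSD and control means (SD) were 9.41 (0.60) and 8.05 (0.77) for CD3E and 11.70 (0.30) and 12.21 (0.11) for CD3D A_72_P014531. For the platelet marker PPBP they were 9.29 (2.09) and 10.58 (0.51). PPBP was 10.90, 10.04 and 6.93 on the HFCSD arrays and 10.14, 10.13, 11.08 and 10.96 on the control arrays, with overlap. The part of these markers in the result was not tested.

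The SLC2A10 result held with slide as a random block (1.83, adjusted p = 0.0168), and within the 2 slides that held both groups the differences were 2.10 (2 HFCSD arrays and 1 control array) and 2.20 (1 array each). It was lost with the share of spots above background as a covariate (0.98, adjusted p = 0.317), without the filter on dim probes (adjusted p = 0.0767) and by the methods' t-test (adjusted p = 0.0761). It was also lost without control replicate 1, 2 or 3 (adjusted p = 0.0763, 0.0748 and 0.0833) or HFCSD replicate 1 or 2 (0.106 and 0.0858), with log2 differences between 1.53 and 1.77. That share was 39.6%, 38.8% and 39.7% on the HFCSD arrays and 50.2%, 49.4%, 46.5% and 38.9% on the control arrays, and its part in the result was not tested further.

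For HFCSD against control at 27 weeks, 1 of 29 carrier probes tested passed in limma, beside 10.6% of all probes, and 15 had an unadjusted p under 0.05 (7 higher and 8 lower), beside 32.2%. The count is thus no result about the carriers as a family. It was 0 without control replicate 1, 2 or 3 or HFCSD replicate 1 or 2, 6 without control replicate 4, 3 without HFCSD replicate 3 and 5 with slide as a random block. Scaling to the 75th percentile gave 2 higher and 1 lower, and another background correction (normexp) gave 3 higher and 4 lower. The median log2 difference was -0.25 for the carriers, -0.16 for the glucose list, -0.44 for the amino acid list and -0.21 for all probes. With scaling to the 75th percentile these medians were -0.05 and -0.21, and with another background correction -0.02 and -0.13, so that a direction for the carriers as a family is not given.

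Carriers near the threshold in that comparison included other members of both lists. SLC2A11 was 11.40, 10.36 and 10.56 in HFCSD pigs, 7.03, 10.87 and 9.55 in HFCD pigs and 7.56, 7.35, 7.31 and 9.83 in control pigs. Every HFCSD array lay above every control array, and control replicate 4 stood apart from the other controls (log2 difference 2.76, SE 0.85, adjusted p = 0.0607). SLC7A9 was 9.68, 9.24 and 8.83 in HFCSD pigs and 7.67, 7.36, 7.02 and 9.10 in control pigs, which overlapped through the same control array (1.46, SE 0.49, adjusted p = 0.075). SLC16A10 was 5.10, 5.31 and 5.98 in HFCSD pigs and 6.67, 6.42, 6.42 and 6.28 in control pigs (-0.99, SE 0.29, adjusted p = 0.052), without overlap. SLC7A7 differed by -0.59 and SLC37A3 by -0.57, with adjusted p = 0.146 and 0.138.

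In the other families, SLC44A2 was 13.51, 13.30 and 13.45 in HFCSD pigs and 12.18, 12.70, 12.90 and 12.71 in control pigs, without overlap (log2 difference 0.80, SE 0.24, adjusted p = 0.0558). Of the zinc carriers, SLC30A9, a carrier of mitochondria, had a difference of 1.04 (SE 0.34, adjusted p = 0.0726). SLC39A5, a zinc importer of the plasma membrane, had -0.67 (SE 0.22, adjusted p = 0.0698), and SLC39A7, which releases zinc from the endoplasmic reticulum, had -0.70 (SE 0.24, adjusted p = 0.0846). SLC25A16 (A_72_P213187, named by similarity), a mitochondrial carrier linked to coenzyme A, was 9.59, 9.35 and 9.52 in HFCSD pigs and 10.17, 10.21, 9.96 and 10.02 in control pigs, without overlap (-0.60, SE 0.19, adjusted p = 0.0613). SLC34A1 was present on all 3 HFCSD arrays and on 1 of 4 control arrays.

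For HFCD against control at 27 weeks, 0 of 34 carrier probes passed in limma, beside 0.0165% of all probes, and 0 had an unadjusted p under 0.05, beside 5.55%. For HFCSD against HFCD, 0 of 34 passed, beside 0.0111%, and 5 had an unadjusted p under 0.05, beside 12.5%. These 5 were SLC2A10 (log2 difference 1.13) and SLC30A9 (0.99), higher in the HFCSD group, and SLC16A10 (-0.85), SLC37A3 (-0.59) and SLC39A5 (-0.60), lower. The methods' t-test gave 0 after adjustment in all whole blood comparisons at 27 weeks. The median log2 differences of HFCD against control and of HFCSD against HFCD were 0.02 and -0.10 for the carriers and -0.03 and -0.15 for all probes.

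In white blood cells at 27 weeks no carrier passed between diets. SLC2A10, SLC7A7 and SLC1A5 overlapped between all 3 diets. SLC4A11, a membrane carrier of the bicarbonate family, had means of 9.49 (0.56) in the HFCSD group and 8.65 (0.62) in the control group, a log2 difference of 0.84 (adjusted p = 0.426). For HFCD against control, 0 of 37 carrier probes passed in limma, beside 0.0276% of all probes, and 0 had an unadjusted p under 0.05, beside 4.73%. For HFCSD against control, 0 of 36 passed, beside 0.0366%, and 1, SLC4A11, had an unadjusted p under 0.05, beside 11.3%. Without HFCSD replicate 2, 1 carrier passed. For HFCSD against HFCD, 0 of 35 passed, beside 0%, and 0 had an unadjusted p under 0.05, beside 2.17%. The methods' t-test gave 0 after adjustment in all of these. Median log2 differences were 0.00, -0.11 and -0.11 for the carriers and 0.02, 0.01 and 0.00 for all probes.

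Whether the diet effect itself differed between white blood cells and whole blood was tested as an interaction. No carrier passed for HFCD (0 of 39 in limma, beside 0% of all probes, with 0 at an unadjusted p under 0.05, beside 1.33%) or for HFCSD (0 of 38, beside 1.38%, with 6 at an unadjusted p under 0.05, beside 19.2%). The methods' t-test was not run for this contrast. SLC2A10 had a difference between the diet effects of -1.95 (SE 0.66, adjusted p = 0.122), so that its effect in whole blood was not shown to differ from that in white blood cells. The other 5 were SLC34A1, SLC1A5 A_72_P309933, SLC25A6 A_72_P019756 (-1.52), SLC37A3 (0.86) and SLC25A16 (0.84). Without control replicate 4 of whole blood, 1 carrier passed for HFCSD. The medians were -0.01 and 0.08 for the carriers and 0.05 and 0.27 for all probes.

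The comparison of white blood cells with whole blood at 27 weeks asks which carriers differed between the captured leukocytes and the RNA of all blood cells. Among the glucose and amino acid carriers, SLC2A11 and SLC7A9 A_72_P093496 were far lower in white blood cells in every diet. The other SLC7A9 probe was present on no array. The nucleotide sugar carriers SLC35A3, SLC35B2 and SLC35D1, the ion carriers SLC12A4 and SLC26A6 and the zinc carriers SLC39A5 and SLC39A7 were higher in white blood cells in every diet. Where a carrier passed in 1 diet and not in the control group, or the reverse, the interaction test found no difference between those diets past the threshold, and HFCSD was not tested against HFCD in this way. In bulk samples, fewer cells of a type and less RNA per cell cannot be told apart, nor can the kit and the scan day from the sample type.

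In the control group, 17 of 35 carrier probes tested passed in limma, for 16 genes, beside 45.3% of all probes, with 12 higher in white blood cells, beside 24.4%, and 5 lower, beside 20.9%. In the HFCD group, 14 of 38 passed, for 13 genes, beside 47.5%, with 11 higher, beside 25.5%, and 3 lower, beside 22%. In the HFCSD group, 20 of 36 passed, for 19 genes, beside 58.8%, with 13 higher, beside 37.1%, and 7 lower, beside 21.6%. Carriers passed about as often as probes in general, and the counts are no result about them as a family. Probes that filled only 1 of the 2 sample types were tested too, so that counts and medians here, of lists and of all probes, depend in part on the filter. Median log2 differences were 0.33, 0.35 and 0.50 for the carriers and 0.17, 0.19 and 0.42 for all probes. With the 75th percentile as scaling the medians over all probes were 0.30, 0.38 and 0.50, so that small rises in white blood cells are to be read against such a shift. The methods' t-test with adjustment gave 13, 14 and 17 carriers.

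Of the glucose list, 0 of 6 probes tested were higher and 2 lower in the control group, 0 and 1 of 7 in the HFCD group, and 1 and 2 of 6 in the HFCSD group, with medians of -0.16, 0.24 and -0.49; the shares and medians of all probes are those just given. SLC2A11 was 2.29, 1.89, 1.38 and 1.38 in white blood cells of control pigs, 2.93, 2.59, 3.08 and 2.75 in those of HFCD pigs and 3.89, 3.24, 3.65 and 5.21 in those of HFCSD pigs. All of these lay below the lowest whole blood level of 27 weeks, 7.03. Where a probe was well above background on no array of a group, the fold is a lower bound, the mean of the brighter group over the lowest signal well above background on each dim array or the probe's own signal if higher. SLC2A11 was at least 26.2-fold lower in white blood cells of the control group (limma's adjusted p = 8.38e-07) and at least 46.8-fold lower in the HFCD group (adjusted p = 2.06e-06). In the HFCSD group, where 3 of 4 white blood cell arrays measured it, it was 110-fold lower (log2 -6.77, SE 0.69, adjusted p = 5.94e-07). Those arrays were close to background, as the lowest signal well above background ranged from 2.73 to 4.87 over all arrays. This fold is therefore uncertain and not to be compared in size with the 2 bounds. In every diet SLC2A11 was tested only because it filled the whole blood group.

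SLC2A10 fell by 2.28 on the log2 scale from whole blood to white blood cells in the HFCSD group (SE 0.48, adjusted p = 0.000585), without overlap. The HFCD mean was 7.66 in whole blood and 6.66 in white blood cells (adjusted p = 0.0949), and the control difference was -0.33 (adjusted p = 0.567). With the share of spots as a covariate the HFCSD difference was -1.30 (adjusted p = 0.102). SLC37A3 was 8.43, 8.34, 8.01 and 8.39 in white blood cells and 6.51, 6.92 and 7.47 in whole blood of the HFCSD group, without overlap (log2 difference 1.33, SE 0.24, adjusted p = 0.000132). SLC2A5 was lower in white blood cells of the control group, with overlap (-0.92, SE 0.30, adjusted p = 0.0186). That call was lost without control replicate 1 of whole blood (adjusted p = 0.0575) or control replicate 3 of white blood cells (adjusted p = 0.0915) and by the methods' t-test (adjusted p = 0.124).

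Of the amino acid list, 3 of 7 probes tested were higher and 1 lower in the control group, beside 24.4% and 20.9% of all probes, 1 and 1 of 6 in the HFCD group, beside 25.5% and 22%, and 2 and 2 of 6 in the HFCSD group, beside 37.1% and 21.6%. The medians were 0.35, 0.41 and 0.71, beside 0.17, 0.19 and 0.42 for all probes. Of the 3 higher in the control group, SLC1A5 A_72_P309933 and SLC7A3 were tested only because they filled the white blood cell group, so that the count is partly set by the filter. SLC7A9 (A_72_P093496) was 4.61, 4.14, 3.37 and 4.85 in white blood cells of control pigs, of which 3 of 4 arrays measured it, against 7.67, 7.36, 7.02 and 9.10 in whole blood. In the control group it was tested only because it filled the whole blood group. In the HFCD group it was 4.56, 3.92, 4.97 and 4.91 against 7.53, 8.91 and 7.96, and in the HFCSD group 4.67, 4.58, 4.81 and 4.70 against 9.68, 9.24 and 8.83. The sample types were apart by more than 2 log2 units in every diet. The differences were -3.55 (SE 0.40, adjusted p = 2.13e-06), -3.55 (SE 0.44, adjusted p = 5.43e-06) and -4.56 (SE 0.44, adjusted p = 3.85e-07).

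SLC1A5 differed by probe. A_72_P309933 was 6.42, 6.05, 5.63 and 6.37 in white blood cells of control pigs and 3.19, 4.39, 3.40 and 2.38 in whole blood, where 1 of 4 arrays measured it, a log2 difference of 2.78 (SE 0.42, adjusted p = 3.26e-05). The difference was 2.10 (SE 0.45, adjusted p = 0.00102) in the HFCD group, with 2 of 3 whole blood arrays measured, and 1.05 (SE 0.45, adjusted p = 0.0531) in the HFCSD group, with 1 of 3. As most whole blood arrays of the control and HFCSD groups lay not well above background, the size of these 2 differences is not measured. A_72_P128251 differed by 0.07 and -0.16 in the control and HFCD groups, with overlap, and by -0.71 in the HFCSD group (SE 0.29, adjusted p = 0.0429). The last call was lost without HFCSD replicate 1, 2 or 3 of whole blood (adjusted p = 0.0884, 0.0573 and 0.12) or replicate 1 or 2 of white blood cells (0.117 and 0.113), and with the 75th percentile as scaling (-0.45, adjusted p = 0.187). It was also lost without the filter on dim probes (0.0677), with the share of spots as a covariate (-0.41, adjusted p = 0.453) and by the methods' t-test (0.0791).

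SLC7A7 was higher in white blood cells of the control group (log2 difference 0.72, SE 0.27, adjusted p = 0.0386, with overlap) and of the HFCSD group (0.91, SE 0.30, adjusted p = 0.013). The HFCD difference was 0.64 (adjusted p = 0.0821). The control call was lost without replicate 2, 3 or 4 of whole blood (adjusted p = 0.0701, 0.106 and 0.0814) or replicate 1 or 4 of white blood cells (0.136 and 0.0661), without the filter on dim probes (0.0671) and by the methods' t-test (0.0907). The HFCSD call was lost without replicate 1 of whole blood (0.0776), with the covariate (0.0911) and by the methods' t-test (0.0781). SLC7A1 was higher in the HFCSD group (0.73, SE 0.24, adjusted p = 0.0133), a call lost without replicate 1 of whole blood (0.0709) and with the covariate (0.45, adjusted p = 0.293). SLC7A3 was higher in the control group (1.72, SE 0.66, adjusted p = 0.0401), with overlap and with 2 of 4 whole blood arrays measured. Its call was lost without replicate 2 or 4 of whole blood (0.111 and 0.16) or replicate 1, 2 or 4 of white blood cells (0.0741, 0.0676 and 0.12). It was lost as well with the 75th percentile (0.0724), with normexp background correction (0.30, adjusted p = 0.125), without the filter (0.0821), with the covariate (0.052) and by the methods' t-test (0.161).

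Of the ion carriers, SLC12A4 and SLC26A6 A_72_P016216 were among the 5 largest rises in every diet. The filter partly set this. In every diet SLC12A4 was tested only because it filled the white blood cell group, as was A_72_P016216 in the control and HFCSD groups. The same held for SLC8A1 in the HFCSD group. SLC12A4, a potassium-chloride cotransporter that serves cell volume, was 6.73, 6.58, 6.68 and 6.89 in white blood cells of control pigs and 3.88, 5.03, 4.00 and 2.24 in whole blood. The white blood cell arrays lay close together and above all whole blood arrays, of which 3 of 4 measured it (log2 difference 2.93, SE 0.42, adjusted p = 1.77e-05). The differences were 2.73 (SE 0.45, adjusted p = 8.76e-05) for HFCD pigs and 2.10 (SE 0.45, adjusted p = 0.000643) for HFCSD pigs, each with 2 of 3 whole blood arrays measured. SLC26A6, an anion exchanger for chloride, was higher with both probes in every diet, by 2.34, 1.95 and 1.81 with A_72_P016216 and by 1.43, 1.15 and 1.09 with A_72_P146936, and the largest adjusted p was 0.0061. A_72_P016216 was measured on 3 of 4 whole blood arrays of the control group and 2 of 3 of the HFCSD group. With the share of spots as a covariate the HFCSD differences of SLC12A4 and of both SLC26A6 probes were 0.94, 1.11 and 0.63 (adjusted p = 0.155, 0.0828 and 0.252). SLC8A1, the sodium-calcium exchanger, was higher in white blood cells of the HFCSD group (adjusted p = 0.0287), but no whole blood array measured it there and the bound was under 1, so that no fold is given. Its call was lost without replicate 1 of whole blood (0.236) or replicate 1, 3 or 4 of white blood cells (0.0545, 0.0506 and 0.0565), with the 75th percentile and normexp (0.281 and 0.219), without the filter (0.0522), with the covariate (0.125) and by the methods' t-test (0.0837).

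Of 5 nucleotide sugar probes, 3 were tested, and these 3 were higher in white blood cells in every diet, beside 24.4%, 25.5% and 37.1% of all probes for control, HFCD and HFCSD. The count is partly set by the filter and is no result about the class: SLC35D1 in the control group, SLC35A3 in the HFCD group and both in the HFCSD group were tested only because they filled the white blood cell group. SLC35A3, which brings UDP-N-acetylglucosamine into the Golgi apparatus, was 6.79, 6.54, 6.70 and 5.40 in white blood cells and 4.01, 4.09, 4.85 and 4.87 in whole blood of control pigs. The groups did not overlap (log2 difference 1.90, SE 0.44, adjusted p = 0.00183), and the difference was 2.32 (SE 0.48, adjusted p = 0.000696) in the HFCD group, with 2 of 3 whole blood arrays measured. In the HFCSD group SLC35A3 was present on no whole blood array and was at least 4.82-fold higher in white blood cells (adjusted p = 1.89e-05). SLC35D1, a carrier of UDP-glucuronic acid of the endoplasmic reticulum, was higher by 1.05 in the control group, with 3 of 4 whole blood arrays measured, and by 1.05 in the HFCD group, and at least 1.67-fold higher in the HFCSD group. SLC35B2, which carries the sulphate donor into the Golgi apparatus, was 1.78-fold, 1.69-fold and 2.14-fold higher. The largest adjusted p of these was 0.00638, and the SLC35D1 difference in the HFCD group was 0.23 (adjusted p = 0.0787) with normexp.

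Of the zinc carriers, SLC39A7 was 8.96, 8.72, 8.44 and 9.04 in white blood cells and 7.88, 7.72, 7.49 and 7.16 in whole blood of control pigs, without overlap (log2 difference 1.23, SE 0.23, adjusted p = 0.000277). Its differences were 1.89 (SE 0.25, adjusted p = 1.01e-05) and 1.77 (SE 0.25, adjusted p = 1.18e-05) in the HFCD and HFCSD groups. SLC39A5 was higher by 0.83, 0.71 and 1.41 (adjusted p = 0.00968, 0.0343 and 0.000212). In the HFCD group its call was lost without any 1 of the 3 whole blood arrays (adjusted p = 0.0711, 0.0533 and 0.106, in order of replicate) or replicate 1, 2 or 3 of white blood cells (0.0525, 0.0806 and 0.0836), without the filter (0.0566) and with normexp (0.051). By the methods' t-test its control call was lost (0.0691). SLC30A9 did not pass in any diet.

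Of 7 mitochondrial probes, 4 were tested, with 1, 2 and 1 higher in the control, HFCD and HFCSD groups and 1 lower in each. Of all probes, 24.4%, 25.5% and 37.1% were higher and 20.9%, 22% and 21.6% lower. The counts are no result about the family. Of the SLC25A16 probes, A_72_P213187 was named by a stated similarity to a zebrafish carrier. A_72_P002986, named by similarity to a human one, was present on 4 arrays and filled no group. SLC25A16 A_72_P213187 was 8.73, 8.23, 7.81 and 7.87 in white blood cells and 10.17, 10.21, 9.96 and 10.02 in whole blood of control pigs, and it was lower without overlap in every diet. Its differences were -1.93 (SE 0.25, adjusted p = 6.8e-06), -1.94 (SE 0.27, adjusted p = 1.75e-05) and -1.09 (SE 0.27, adjusted p = 0.00205). SLC25A6 was higher in white blood cells with A_72_P019756, by 2.47 for control pigs (SE 0.40, adjusted p = 6.64e-05) and 1.87 for HFCD pigs (SE 0.43, adjusted p = 0.00174), with 0.95 for HFCSD pigs (adjusted p = 0.0657). A_72_P165521 of the same gene differed by -0.33 in the control group (adjusted p = 0.0918). SLC25A17, a family member known from peroxisomes, was higher by 0.59 in HFCD pigs (adjusted p = 0.0473) and 0.81 in HFCSD pigs (adjusted p = 0.00696, with overlap). Its HFCD call was lost without any 1 of the whole blood arrays (adjusted p = 0.0583, 0.0552 and 0.211, in order of replicate) or replicate 1, 2 or 3 of white blood cells (0.0889, 0.0899 and 0.105). It was also lost with normexp (0.33, adjusted p = 0.0709), without the filter (0.0719), with the slide block (0.0553), with the covariate (0.0543) and by the methods' t-test (0.073). The methods' t-test also lost the HFCSD calls of SLC25A17 (0.0913) and SLC25A16 (0.0607).

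Among the remaining members, SLC34A1 was 5.76, 4.81 and 4.86 in whole blood of HFCSD pigs and 1.40, 2.56, 1.65 and 1.43 in their white blood cells, where no array measured it, at least 3.54-fold lower (adjusted p = 0.000439). It was tested there only because it filled the whole blood group, so that this call is partly set by the filter. SLC44A2 fell by 0.81 in the HFCSD group (SE 0.25, adjusted p = 0.00959), from 13.42 (0.11) to 12.61 (0.33). SLC31A2 fell by 0.69 in the control group (SE 0.23, adjusted p = 0.0173), with overlap, a call lost without control replicate 1 of whole blood (0.0624) or control replicate 3 of white blood cells (0.076) and by the methods' t-test (0.0804). With the share of spots as a covariate the HFCSD differences of SLC34A1 and SLC44A2 were -1.30 (adjusted p = 0.149) and -0.51 (adjusted p = 0.261).

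**Figure D4:**
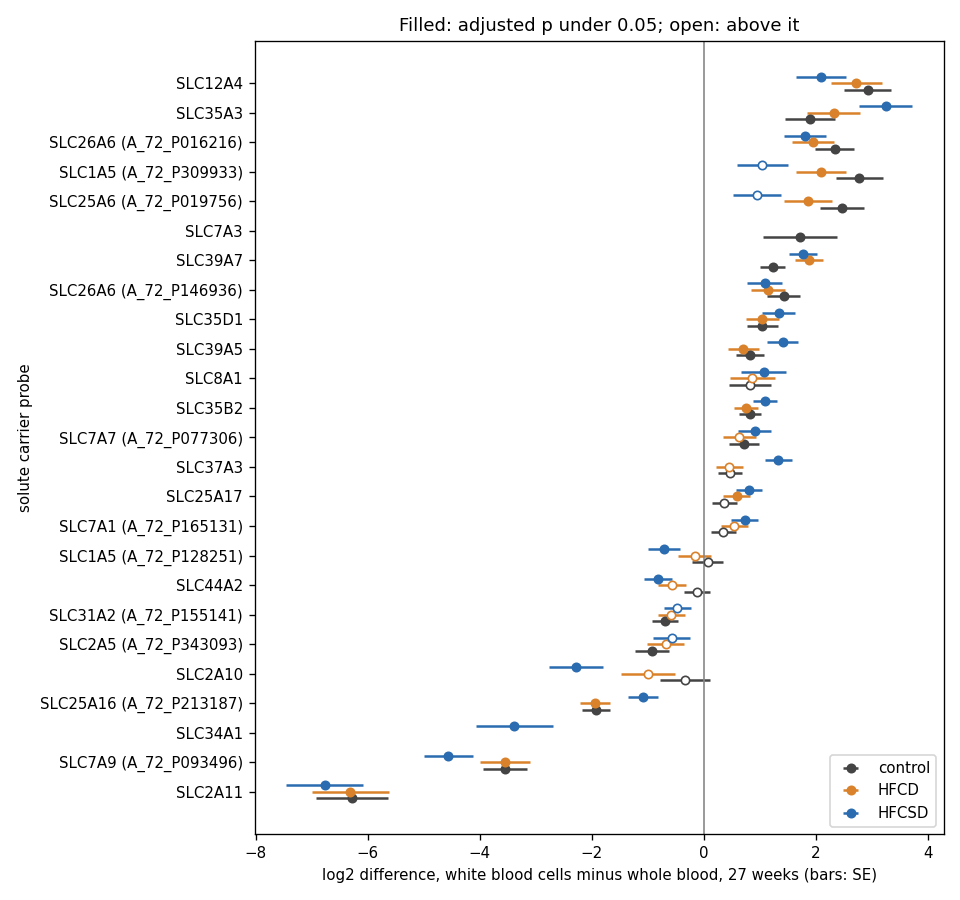
Log2 difference between sample types at 27 weeks, white blood cells minus whole blood (x axis), for the solute carrier probes that passed in at least 1 diet (y axis), with control in grey, HFCD in orange and HFCSD in blue. Points are limma estimates, bars are standard errors and filled points have an adjusted p under 0.05. The SLC2A11 point for HFCSD rests on white blood cell levels close to background, so that its size is uncertain. SLC25A16 lies at -1.93, -1.94 and -1.09 and SLC39A7 at 1.23, 1.89 and 1.77 for control, HFCD and HFCSD; the points of SLC2A11 for control and HFCD and of SLC34A1, SLC35A3, SLC35D1 and SLC8A1 for HFCSD are set against a group with no array well above background, so that their size is not measured.

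Genes that work beside the carriers were listed as partners, 29 in all, of which 4 had a probe here. Of 5 partner probes tested, 4, 3 and 3 were higher in white blood cells of the control, HFCD and HFCSD groups and 0 were lower, beside 24.4%, 25.5% and 37.1% of all probes higher, with medians of 0.93, 1.11 and 1.19, beside 0.17, 0.19 and 0.42. ATP1B1, a subunit of the pump that keeps the sodium gradient of sodium-coupled carriers, was higher by 0.93, 1.11 and 1.45 with A_72_P176191, whereas A_72_P036071 differed by 0.44, 0.31 and 0.42 and passed in no diet. TXNIP, which limits glucose uptake, was higher by 1.53, 1.39 and 1.19 with A_72_P146541, and A_72_P391733 differed by 0.82, 0.84 and 0.37 and passed in the control group alone. In the diet comparisons of whole blood at 27 weeks, ATP1B1 A_72_P176191 was the 1 partner probe that passed, with 7.14 (0.49) in the HFCSD group and 8.12 (0.17) in the control group (log2 difference -0.98, SE 0.25, adjusted p = 0.0372). A_72_P036071 of the same gene had 8.34 (0.14) and 8.61 (0.25) there and did not pass (-0.27, adjusted p = 0.409).

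T cell marker probes went both ways between the sample types, and those that passed were higher in white blood cells. For control, HFCD and HFCSD, CD2 A_72_P131826 had 6.48, 6.58 and 6.40 in white blood cells and 6.85, 6.83 and 6.70 in whole blood. In the same order, CD3D A_72_P014531 had 12.08, 12.16 and 12.34 in white blood cells and 12.21, 11.97 and 11.70 in whole blood. Of 12 T cell marker probes tested, for 7 of the 9 genes listed, 9, 6 and 9 were higher in white blood cells of the control, HFCD and HFCSD groups, with medians of 0.97, 0.89 and 1.11. Of all probes 24.4%, 25.5% and 37.1% were higher, with medians of 0.17, 0.19 and 0.42. CD3D was the brightest, and the summed T cell level (log2) was 12.81, 12.84, 13.10 and 12.82 in whole blood and 13.56, 13.49, 13.69 and 12.87 in white blood cells of control pigs. For HFCD it was 12.38 and 13.01 in whole blood replicates 2 and 3, with replicate 1 between them, against 13.64, 13.96, 13.27 and 13.14 in white blood cells. For HFCSD it was 12.44, 12.62 and 12.97 against 13.48, 13.94, 13.50 and 13.61. White blood cells lay above whole blood without overlap for HFCD and HFCSD, and for control all but replicate 4 of the white blood cells did. Of the monocyte marker probes, 3 of 8, 1 of 7 and 2 of 7 were higher, beside the same shares of all probes. Their medians were 1.02, 0.76 and 0.86, beside 0.17, 0.19 and 0.42 for all probes, and LYZ was the brightest. For control the summed monocyte level was 13.90, 13.28, 13.60 and 13.36 in whole blood and 15.93, 14.53, 14.26 and 13.65 in white blood cells. It was 13.92, 13.38 and 13.41 against 14.85, 14.41, 14.67 and 13.58 for HFCD and 12.50, 13.36 and 13.44 against 13.04, 13.81, 14.99 and 14.35 for HFCSD, and the sample types overlapped in every diet. None of the neutrophil markers LTF and MMP9 and the platelet marker PPBP passed in any diet. The erythroid list had 2 probes, TFRC and a hemoglobin alpha probe, neither of which filled a group, so that red cell RNA could not be followed here. Of 9 liver marker probes, 8 filled no group. The part of these cell types in the carrier differences was not tested.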

How the data were processed

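RNA of 45 porcine blood samples was measured on 1-colour Agilent arrays of 45220 spots. The deposited scanner files hold intensity values that the authors' Feature Extraction software subtracted and detrended for background within each array, with no step between arrays; the file headers give version 10.5.1.1 and the processing notes 9.5.3.1. A table of quantile-normalized intensity, which the authors made in GeneSpring, was deposited as well, on a linear scale whose centring is not stated. Its log2 values had a median of -3.32 to -3.31 per array and it served as an alternative. The 0 and 1 flags of each spot are deposited with the intensities, per the file headers.

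Log2 intensity was quantile normalized over the 45 arrays, as in the methods. Control spots and spots marked as outliers (1 to 31 per array) were left out, which gave 43803 spots, and spots of 1 probe were averaged to 43603 probes; no spot was saturated. Of the spots, 35.4% to 53.3% per array were well above background, and the number of arrays limits the precision. A probe is called present where it was well above background, and probes present on all arrays of at least 1 of the groups compared were tested. limma (3.58.1, R 4.3.3) fitted the 3 diets of a week, or the 6 groups of 27 weeks, with two-sided tests and Benjamini-Hochberg adjustment over all probes tested at 0.05. Python 3.11.15 with numpy 2.4.6, pandas 2.3.3 and matplotlib 3.10.9 made the tables and plots. The fit was tested on simulated data.

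Replicates of a group are taken as arrays of separate animals. The study had 15 pigs, 5 for each diet, bled repeatedly, so that arrays of different weeks and of both sample types share pigs. Which arrays do so is not given, and the tests between sample types and of interactions treat all arrays as independent. There were 17 comparisons: 12 between diets, 3 between sample types and 2 interactions. Weeks were not compared by a test, since each week was scanned on its own days. Genes were named by a rule: the glucose and amino acid lists, with values where present in a group; in each comparison up to 5 rises and 5 falls past the adjusted threshold; 16 genes of blood cells; and genes with several probes. Other carriers with values were picked after their values were seen. Partner and marker lists were set by symbol, and some listed genes are not reported here. The members and lists were chosen with earlier results of these data known. Gene names are those of the array files; no probe positions are given.

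Alternatives were the 75th percentile as scaling, normexp with an offset of 50, the deposited table, no filter on dim probes, the replicate number, slide or scan day as a block, the share of spots above background as a covariate, the methods' t-test with their fold of 2 or with adjustment, a weaker flag for presence and each array left out in turn (67 refits).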

Additional observations from a re-analysis of the deposited data

Results flagged for a closer look

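Among 204 levels of named carriers in groups of 4 arrays, 11 had 1 array far from the other 3, which chance does for about 1 in 20 groups, or 5%. The number is thus about what chance gives, and the values follow only because the rule picked them. In whole blood at 10 weeks these were SLC7A9 in control replicate 2 (8.54, the others 7.77 to 7.84), SLC35B2 in the same array (9.89, the others 10.31 to 10.38), SLC25A16 in HFCSD replicate 2 (10.05, the others 10.46 to 10.54) and SLC26A6 A_72_P146936 in HFCSD replicate 4 (7.71, the others 7.18 to 7.21). At 19 weeks HFCD replicate 1 stood apart for 3 carriers: SLC7A9 (5.56, the others 8.92 to 9.49), SLC2A10 (6.52, the others 9.26 to 9.44) and SLC39A7 (8.05, the others 7.01 to 7.17). At 27 weeks control replicate 4 stood apart for SLC2A11 (9.83, the others 7.31 to 7.56). In white blood cells SLC26A6 A_72_P016216 was high in control replicate 1 (7.62, the others 7.15 to 7.21), and HFCSD replicate 1 was low for SLC25A6 A_72_P019756 (10.26, the others 11.01 to 11.10) and SLC25A17 (6.25, the others 7.15 to 7.27).

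SLC2A10 had differences of unlike sign in whole blood at 19 and 27 weeks. HFCSD minus control was -0.81 at 19 weeks, with every HFCSD array below every control array, and 1.68 at 27 weeks, with every HFCSD array above. The first of these passed neither the adjusted nor the unadjusted threshold, and 3 of the 4 control arrays there were scanned on another day than the HFCSD arrays. The difference between the weeks was not tested, and week and scan day cannot be told apart.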

How the results depend on the processing

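Carriers that passed in HFCSD against control in whole blood at 27 weeks numbered 1, and 3 with the 75th percentile (2 higher, 1 lower), 7 with normexp (3 higher, 4 lower), 5 with slide as a random block, 0 with the share of spots as a covariate, and 0 or 3 by the methods' t-test with adjustment or with its fold. Over the fits that left out 1 array each, the number ranged from 0 to 6. It ranged from 0 to 1 for HFCSD against control in white blood cells and for the HFCSD interaction. The methods' t-test with its fold gave 1 carrier for HFCSD against control at 19 weeks and 11, in place of 17, for white blood cells against whole blood in the control group. The share of spots as a covariate gave 11, in place of 20, in the HFCSD group. The weaker flag put 64 probes, in place of 41, in at least 1 group. The cause was not tested for any of these.

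The replicate number as a block gave 4 carriers for HFCSD against control in whole blood at 27 weeks and moved no other count by over 1.5 times. In 53 pairs of arrays with the same number, r of the deviations from the group means ranged from -0.639 to 0.739, 26 were negative, and in 0 of 15 comparisons was every r over 0.1. Only the 10 pairs of white blood cells and whole blood within a diet could share a pig. Their r ranged from 0.0321 to 0.471 for control, -0.426 to 0.189 for HFCD and -0.0419 to 0.358 for HFCSD, and 7 were positive. Whether a number marks the same pig cannot be told from these values, and the numbers were not used as pairs.

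All 52 named differences kept their direction under each alternative run. The number that no longer passed was 3 with the 75th percentile, 5 with normexp, 7 without the filter on dim probes, 4 with the replicate block (SLC7A7 and SLC7A3 in the control group, SLC25A17 in the HFCD group and SLC8A1 in the HFCSD group, white blood cells against whole blood), 1 with the slide block, 13 with the covariate, 12 by the methods' t-test and 0 with the deposited table; over the fits with an array left out, 42 tests no longer passed and 339 did. Leaving out each array for detection, added after the data were seen, gave 41 to 46 probes. Probes near background had bounds or few measured arrays, which limits SLC1A5 A_72_P309933, SLC2A11, SLC7A3, SLC7A9, SLC12A4, SLC26A6 A_72_P016216, SLC34A1, SLC35A3, SLC35D1 and SLC8A1.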
